A study of Mus musculus with 2 samples.

Results

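The subject is a set of 10 genes whose products make, carry and use microRNAs: the Argonautes Eif2c1, Eif2c2, Eif2c3 and Eif2c4 (now Ago1 to Ago4), the Microprocessor subunit Dgcr8, the exporter Xpo5, Dicer1 with its partner Tarbp2, and the Argonaute partners Tnrc6a and Tnrc6b. They were found by symbol among the reads that the table assigns to RefSeq genes, and all 10 of the 10 symbols had reads, out of 16128 RefSeq symbols in the table. What was counted are short pieces of RNA assigned to these genes in a small RNA library, expressed as reads per 1000000 reads of the library, all classes included (RPM).

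The study sequenced small RNA from mouse fetal liver at stage E18.5, strain B6/129, in 1 wild type library and 1 library of the genotype Ago2ADH, whose Argonaute 2 is catalytically inactive. RNA of 19 to 30 nt was cut from a gel. How many livers entered a library is not given in the sources used here. With 1 library per genotype no difference has a replicate check, no p-value was computed, and every interval is a 95% interval of counting error only.

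As background, Drosha and Dgcr8 form the Microprocessor, which cuts hairpins out of primary transcripts, and Xpo5 carries the hairpins to the cytoplasm. Dicer1, with Tarbp2, cuts them to duplexes, an Argonaute keeps one strand as its guide, and Tnrc6 proteins link the Argonaute to the enzymes that deadenylate and decap target mRNAs. Argonaute 2 is the Argonaute that cleaves a well paired target.

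Reads from miRNA hairpins make up most of the Dgcr8 reads and some of the Tnrc6b reads, so these sequences are shown first. The Mir1306 hairpin lies in the coding sequence of Dgcr8 at chr16:18284239-18284317 on the minus strand, and Mir5113 lies in the 3′ UTR of Tnrc6b at chr15:80940039-80940120 on the plus strand. Hairpin and mature sequences are those of RefSeq (GRCm38.p6), and the reads are from the deposited table. In the hairpin the capitals mark the leading read of each arm, and in the other sequences they mark the seed, bases 2 to 8, with which a guide finds its targets.
Mir1306 hairpin: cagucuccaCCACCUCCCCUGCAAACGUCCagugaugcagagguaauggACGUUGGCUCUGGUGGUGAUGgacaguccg
Mir1306 5p leading read: cCACCTCCcctgcaaacgtcc
mmu-miR-1306-5p (RefSeq): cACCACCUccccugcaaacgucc
Mir1306 3p leading read: aCGTTGGCtctggtggtgatg
Mir5113 5p leading read: gACAGAGGaggagagagatcctgt
mmu-miR-5113 (RefSeq): aCAGAGGAggagagagauccugu

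The wild type library held 7599870 reads and the Ago2ADH library 7046197, of which 12.7% and 12.0% were RefSeq reads. At this depth 3 reads correspond to 0.395 and 0.426 RPM. Hepatocyte markers were present as labelled, with all 16 of 16 detected and 14231 and 14433 RPM in sum. Their median log2 ratio was −0.05, and by the counting interval 8 were lower and 5 were higher. Erythroid markers, 15 of 15 detected, summed to 2020 and 1326 RPM, their median log2 ratio was −0.49, and by the interval 8 of the 15 were lower and 1 was higher. Over all tested RefSeq genes 5.95% were lower and 6.21% higher by the interval. Of the 3 neural markers Stmn2 had 0 and 3 reads, and the symbols Tubb3 and Map2 were not found in the table. In bulk tissue fewer cells of a type and less RNA per cell cannot be told apart, and the part of the erythroid difference in the values below was not tested.

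No gene of the set met the size rule, which asks for 20 or more reads over both libraries, a ratio of at least 2 or at most 0.5 and an interval that excludes 1. Of the 10 genes, 9 had enough reads to be tested, and Eif2c4 had too few. Among the 9550 RefSeq genes tested, 1.8% were called higher in Ago2ADH and 1.99% lower, 3.79% in all. The split of 172 higher and 190 lower depended on the scaling: it was 254 and 131 when scaled to RefSeq reads, and 108 and 291 when scaled to miRNA reads. By the interval alone, which excluded 1 for 6.21% of the tested genes on the higher side and for 5.95% on the lower side, 1 of the 9 was higher and 0 were lower. That gene was Eif2c2, the one that carries the mutation. Dgcr8 lay at the edge. Its interval excluded no change when scaled to RefSeq reads (log2 0.08 to 0.55), by TMM (0.0067 to 0.48) or by median-of-ratios (0.0048 to 0.47). Under these scalings the count was 2 of the 9. Of all 9550 tested genes, 866, 612 and 610 were then higher by the interval, in that order, beside 593 at first. With single-match reads the Dgcr8 interval also excluded no change (0.01 to 0.49), and no share over all genes was counted there. Most Dgcr8 reads lie in a miRNA hairpin, and without hairpin reads its log2 ratio was −0.28 (−0.90 to 0.33).

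**Figure D1:**
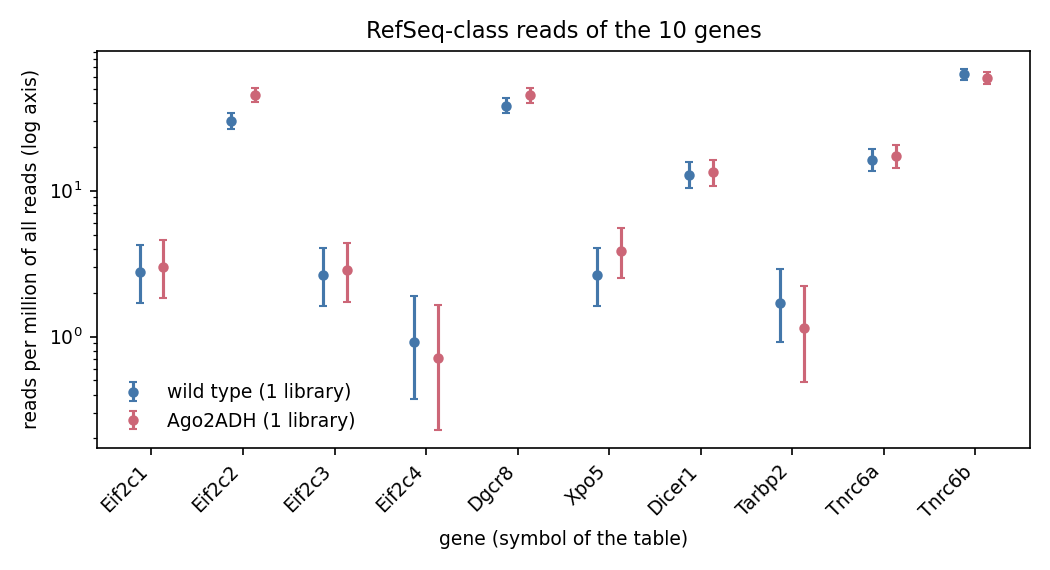
RPM (log axis) for each of the 10 genes in the wild type and Ago2ADH libraries, 1 library each, with bars for the exact Poisson 95% interval. Only for Eif2c2, at 30.1 and 45.1 RPM, do the bars of the 2 libraries stand apart.

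The targeted gene was looked at first. Eif2c2 (Ago2, chr15:73095844-73184935, minus strand, GRCm38) had 229 reads or 30.1 RPM in wild type (26.4 to 34.3) and 318 reads or 45.1 RPM in Ago2ADH (40.3 to 50.4). The mutant to wild type ratio was 0.58 on the log2 scale (0.33 to 0.83), short of the 2-fold limit, and the Poisson intervals of the 2 libraries do not overlap. The reads did not pile up: they comprised 460 distinct sequences, of which 83.5% were read once, and the most frequent had 4 reads.

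A read carrying an aspartate-to-alanine change was found in the Ago2ADH library. The coding sequence of Ago2 was searched at its 39 aspartate codons for reads of 18 nt or more with no genome match in which the codon's second base was C in place of A, which turns aspartate into alanine. A single sequence was found, read 2 times in Ago2ADH and 0 times in wild type, with A1793C counted from 1 at the first base of the coding sequence, in codon 598. The read and the transcript of GENCODE M21 are shown with the changed base in capitals.
Ago2ADH read over the changed codon: tgtcatcttcctgggagccgCtg
GENCODE Ago2 transcript at the same place: tgtcatcttcctgggagccgAtg
The unchanged base was covered by 0 reads in either library, so this check of the genotype label rests on 2 reads of 1 sequence.

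The higher Ago2 signal lay in reads that match no annotated transcript of the gene. Reads were placed by exact match on the GENCODE M21 transcripts of their own gene. Within transcripts Eif2c2 had 148 reads or 19.5 RPM in wild type and 149 reads or 21.1 RPM in Ago2ADH (log2 ratio 0.12, −0.22 to 0.46). Outside transcripts it had 81 reads or 10.7 RPM in wild type and 169 reads or 23.98 RPM in Ago2ADH (log2 ratio 1.17, 0.78 to 1.57). Among the 5621 genes tested on reads outside transcripts, 3.45% were called higher and 2.06% lower by the size rule, 5.52% in all, and by the interval alone 7.86% were higher and 4.36% lower. Of the 7 genes of the set with 20 or more such reads, 1 was higher by both rules, Eif2c2, and 0 were lower by either. Among the 6664 genes tested on reads within transcripts, 1.61% were called higher and 2.52% lower by the size rule, 4.13% in all, and by the interval alone 4.22% were higher and 6.44% lower. Of the 7 genes of the set tested there, 0 met the size rule and 1 was higher by the interval, Dgcr8, whose reads within transcripts are described below. The share of Eif2c2 reads outside transcripts was 35.4% (29.2 to 41.9) in wild type and 53.1% (47.5 to 58.7) in Ago2ADH. The same figure over all RefSeq reads was 34.3% and 38.1%.

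These outside reads rose as a broad spread of sequences and not as a stack. Of 208 distinct sequences, wild type held 73 and Ago2ADH 135, and without the most frequent one the log2 ratio was 1.14 (0.74 to 1.54). Reads with a single genome match numbered 72 and 162 (log2 ratio 1.28, 0.87 to 1.70). At 20 to 24 nt the log2 ratio was 1.22 and at other lengths 1.14. None of the outside reads, 0 in all, matched any GENCODE transcript on either strand. Where in the genome they lie was not tested, as no genome sequence was used here. The outside ratio was reached or passed by 176 of the 5621 genes (3.13%), and by 6 of the 1316 genes with 100 or more outside reads. Its excess over the within-transcript ratio, 1.05, was reached or passed by 331 of 4083 genes (8.11%), whose median difference was 0.11.

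**Figure D2:**
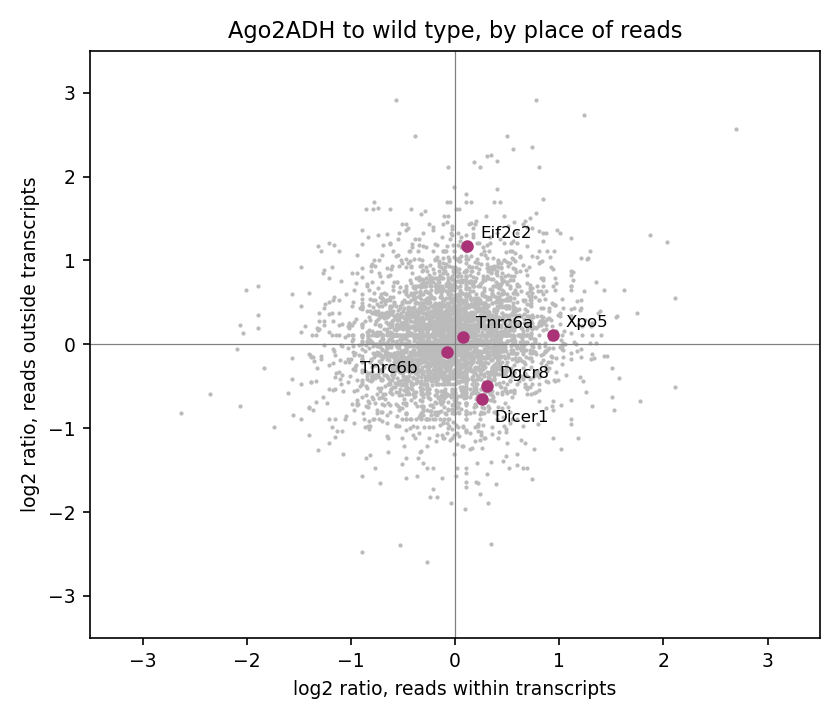
Log2 ratio of Ago2ADH to wild type for reads within transcripts (x axis) and outside transcripts (y axis), for 4083 RefSeq genes with 20 or more reads in each class; 2 genes lie beyond the axes. Of the 6 named genes shown, Eif2c2 stands near 0 on the x axis and at 1.17 on the y axis.

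A second count of the mature Ago2 transcript did not differ beyond counting error either. The Ago2 reads that the table calls RefSeq and that match the genome once have their last start at position 5145 of a 13800 nt transcript. Single-match reads that start farther along were left unclassified. RefSeq reads with 2 or more genome matches start as far along as position 12872 and are not counted here. Starting beyond position 5145 there were 203 unclassified single-match reads in wild type and 201 in Ago2ADH (log2 ratio 0.09, −0.19 to 0.38). Over the whole transcript, with reads of any class that match the genome at most once, there were 302 and 291 reads (log2 ratio 0.06, −0.18 to 0.29).

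The other Argonautes gave few reads. Eif2c1 (chr4:126435012-126468583, minus strand) had 21 reads in each library, 2.76 and 2.98 RPM (log2 ratio 0.11, −0.84 to 1.05). Eif2c3 (chr4:126331704-126429556, minus strand) had 20 reads in each, 2.63 and 2.84 RPM (log2 ratio 0.11, −0.86 to 1.08). Eif2c4 (chr4:126489541-126533472, minus strand) had 7 and 5 reads, under the minimum. The Poisson intervals of the 2 libraries overlap for each of these 3 genes, and with so few reads the interval of the ratio for Eif2c1 and Eif2c3 does not exclude a change of nearly 2-fold in either direction.

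Counting unclassified reads as well gave another value for Eif2c3. Its transcript-matching reads that match the genome at most once were 18 in wild type and 32 in Ago2ADH (log2 ratio 0.94, 0.06 to 1.86). The difference came from unclassified reads beyond position 2688, 11 in wild type and 27 in Ago2ADH, none of these sequences with more than 2 reads. For Eif2c1 the same count was 35 and 19 (log2 ratio −0.77, −1.66 to 0.07). This count was made for the named genes only, so no background share exists for it. Summed over the 4 Argonautes it was 357 and 343 reads (log2 ratio 0.05, −0.17 to 0.27).

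Dgcr8, the RNA-binding subunit of the Microprocessor (chr16:18253948-18289246, minus strand), had 291 reads or 38.3 RPM in wild type and 317 reads or 44.99 RPM in Ago2ADH (log2 ratio 0.23, −0.0015 to 0.47). Most of these reads lay within a microRNA hairpin, and the table classes them as RefSeq reads, not as miRNA reads. Of the Dgcr8 reads, 235 in wild type and 274 in Ago2ADH lay within Mir1306, at positions 524 to 602 of a transcript whose coding sequence runs from 425 to 2746. A further read in each library lay in the hairpin Gm24572, which raises the hairpin share to 81.1% and 86.8%. Outside the hairpins Dgcr8 had 55 reads or 7.24 RPM in wild type and 42 reads or 5.96 RPM in Ago2ADH (log2 ratio −0.28, −0.90 to 0.33).

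The Mir1306 reads had a single dominant 5′ end. The 5p arm had 230 reads in wild type and 260 in Ago2ADH (log2 ratio 0.29, 0.02 to 0.55), and 94.8% and 97.3% of them began at base 10 of the hairpin. The RefSeq mature sequence begins at base 8, and 0 reads matched it exactly in either library. The leading read, with 106 and 120 reads, therefore has a seed that differs from the listed one, as the sequences above show. The 3p arm had 5 reads in wild type and 14 in Ago2ADH, under the minimum, and its leading read of 2 and 5 reads is the RefSeq mature sequence. The 3p starts were divided: 3 and 5 reads began at base 50, as that sequence does, and 2 and 8 at base 49.

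The Mir1306 reads also had the lengths of a miRNA. At 20 to 24 nt lay 96.2% of them in wild type and 97.1% in Ago2ADH, against 41.4% and 41.3% of the set's reads outside hairpins. Reads of the 5p arm that carry 1 extra 3′ base absent from the hairpin numbered 41 and 43, or 15.1% and 14.2% of the arm with them included. The extra base was T in 22 and 30 of these reads and A in 19 and 13. Scaled to miRNA reads, the hairpin stood at 83.7 and 97.5 RPM of that class (log2 ratio 0.22, −0.04 to 0.48).

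**Figure D3:**
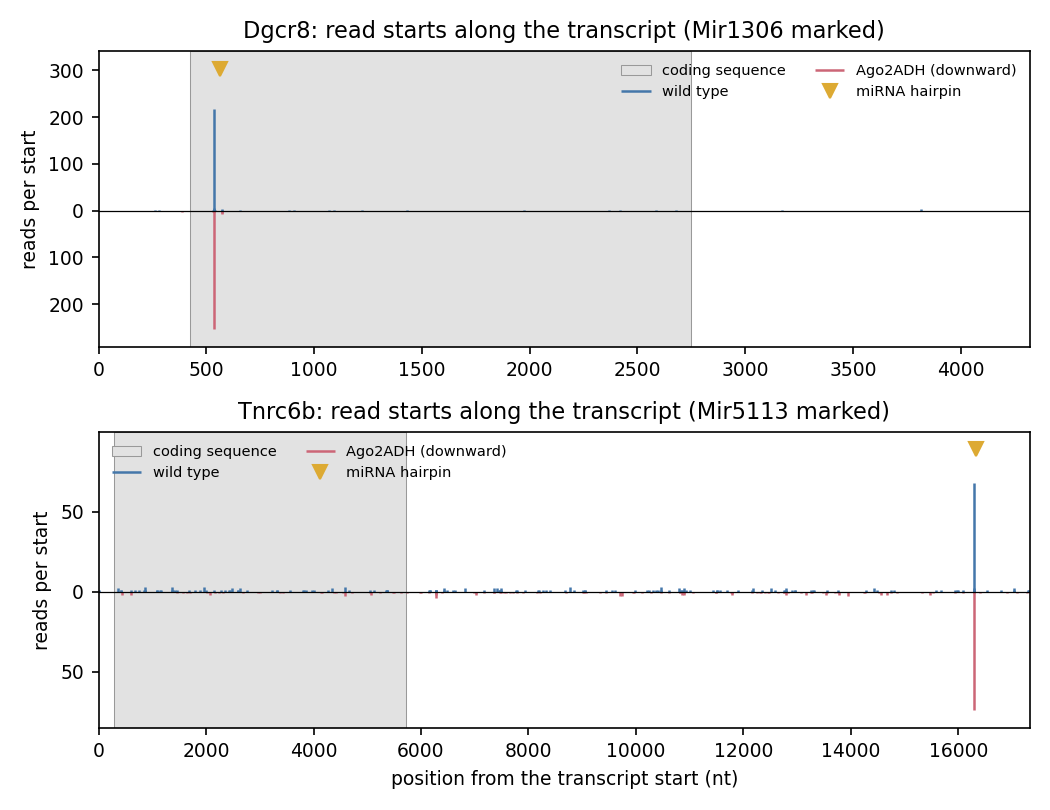
Reads starting at each position of the Dgcr8 and Tnrc6b transcripts (x axis, nt from the transcript start), wild type upward and Ago2ADH downward, with the coding sequence shaded and the hairpin marked by a triangle. In Dgcr8 the Mir1306 start in the coding sequence holds most reads, and in Tnrc6b the Mir5113 start stands near the transcript's 3′ end.

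**Figure D4:**
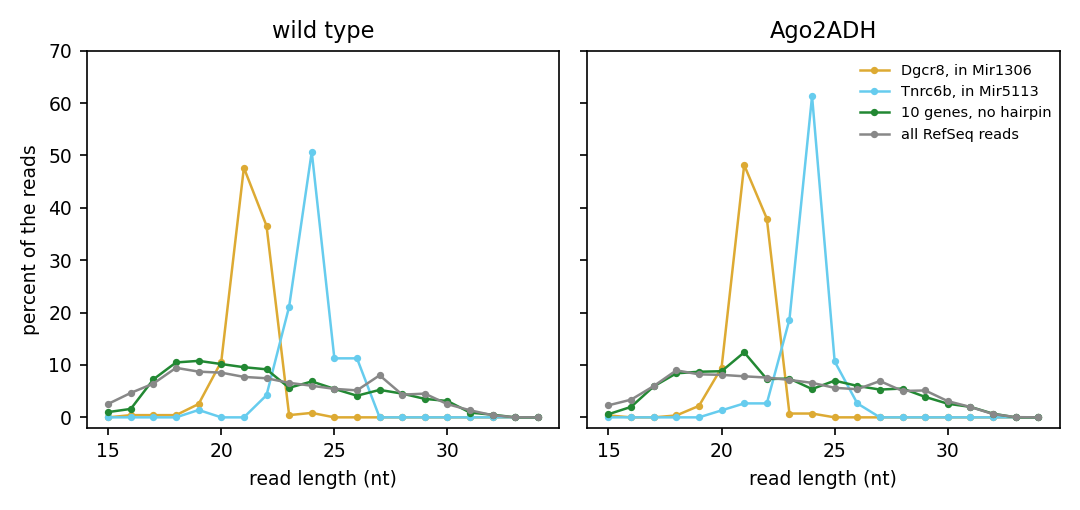
Read lengths (x axis, nt) as a percent of the reads of each class, by library. Mir1306 reads of Dgcr8 peak at 21 nt and Mir5113 reads of Tnrc6b at 24 nt, while the 10 genes' other reads and all RefSeq reads are spread over a wide range, 15 to 32 nt for the former and up to 34 nt for the latter.

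Xpo5, which exports the precursor hairpins (chr17:46202782-46243598, plus strand), had 20 reads or 2.63 RPM in wild type and 27 reads or 3.83 RPM in Ago2ADH (log2 ratio 0.54, −0.35 to 1.45). Within transcripts it had 9 and 16 reads (log2 ratio 0.94, −0.33 to 2.30). Both intervals include 0.

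Dicer1, the enzyme that cuts precursors to duplexes (chr12:104687742-104751952, minus strand), had 98 reads or 12.9 RPM in wild type and 94 reads or 13.3 RPM in Ago2ADH (log2 ratio 0.05, −0.37 to 0.47). Within transcripts it had 64 and 71 reads (log2 ratio 0.26, −0.25 to 0.77), and outside them 34 and 20 (log2 ratio −0.66, −1.53 to 0.18). No class of Dicer1 reads differed beyond counting error. Of the 123 reads placed on its reference transcript, the longest one linked to its RefSeq entries, 65.9% (56.8 to 74.2) lay in the coding sequence, which makes up 58.1% of that transcript. Tarbp2 (chr15:102518192-102523676, plus strand), the double-stranded RNA-binding partner of Dicer1, had 13 and 8 reads, 1.71 and 1.14 RPM (log2 ratio −0.59, −2.07 to 0.79).

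Of the Tnrc6 scaffolds, which recruit the deadenylases, Tnrc6b gave the most reads of the set. Tnrc6a (chr7:123123885-123195296, plus strand) had 124 reads or 16.3 RPM in wild type and 122 reads or 17.3 RPM in Ago2ADH (log2 ratio 0.09, −0.29 to 0.46). Tnrc6b (chr15:80711313-80941085, plus strand) had 476 reads or 62.6 RPM and 417 reads or 59.2 RPM (log2 ratio −0.08, −0.27 to 0.11). Over all its reads, neither gene differed beyond counting error.

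Tnrc6b also held hairpin reads. Mir5113 gave 71 reads or 14.9% of the gene's reads in wild type and 75 reads or 17.99% in Ago2ADH, all from the 5p arm (log2 ratio 0.19, −0.30 to 0.68). They began at base 10 of the hairpin in 95.8% and 98.7% of cases, while the RefSeq mature sequence begins at base 11 and was read 1 time and 0 times. Outside the hairpin Tnrc6b had 405 and 342 reads (log2 ratio −0.13, −0.35 to 0.08). Of the 322 reads of both libraries placed on its reference transcript outside the hairpin, 31.1% (26.04 to 36.4) lay in the coding sequence. That sequence makes up 31.3% of the transcript. The libraries differed in this: coding reads numbered 65 in wild type and 35 in Ago2ADH, and 3′ UTR reads 111 and 110. Whether this split goes beyond counting error was not tested, and no background share exists for it.

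**Figure D5:**
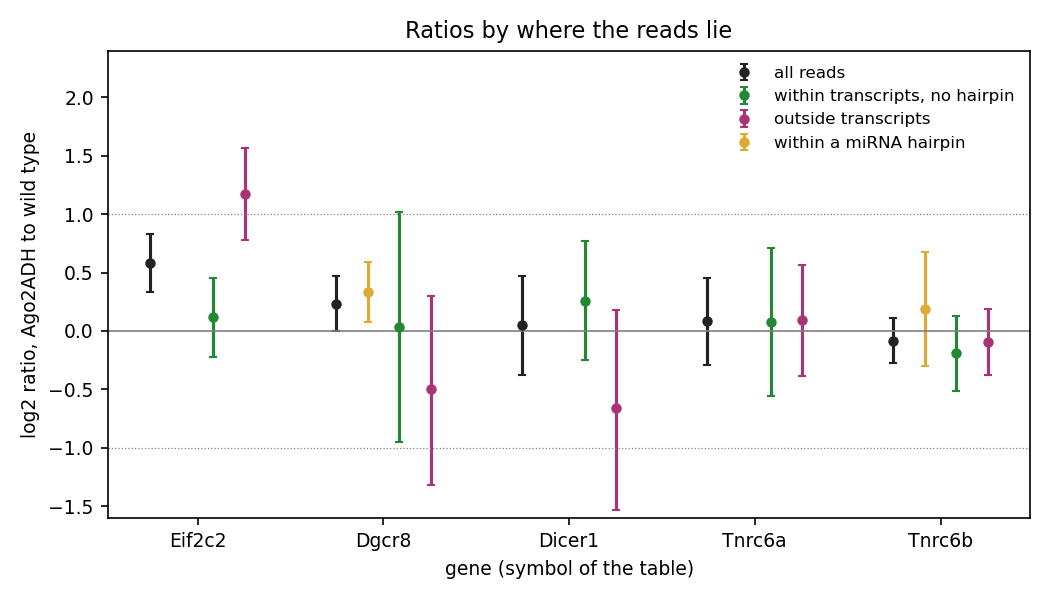
Log2 ratio of Ago2ADH to wild type (y axis) with 95% intervals for 5 genes, over all reads and over the reads within a miRNA hairpin, within transcripts without hairpins and outside transcripts; dotted lines mark the 2-fold limits. Only the outside reads of Eif2c2 pass a limit with an interval that excludes 0.

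As a group the 10 genes had 1299 reads or 170.9 RPM in wild type and 1349 reads or 191.5 RPM in Ago2ADH (log2 ratio 0.16, 0.05 to 0.27). The median log2 ratio over the 10 genes was 0.10, beside −0.0063 over all tested RefSeq genes. Without the Mir1306 and Mir5113 reads the summed log2 ratio was 0.12 (−0.0089 to 0.25), and without Eif2c2 it was 0.06 (−0.07 to 0.18). The interval also included 0 when scaled to miRNA reads (log2 ratio 0.05, −0.06 to 0.16), with reads of 20 to 24 nt (0.14, −0.02 to 0.29) and with sense reads within transcripts (0.14, −0.0028 to 0.28). It excluded 0 when scaled to RefSeq reads (0.25, 0.14 to 0.36), by TMM (0.17, 0.06 to 0.28) and by median-of-ratios (0.17, 0.06 to 0.28). The same held with single-match reads (0.18, 0.06 to 0.29), reads of 19 to 30 nt (0.18, 0.06 to 0.30) and distinct sequences counted (0.15, 0.02 to 0.29). It held too without each gene's most frequent sequence (0.15, 0.03 to 0.26) and with only reads outside transcripts (0.20, 0.02 to 0.38). Of those outside reads, 493 in wild type and 524 in Ago2ADH, Eif2c2 alone gave 81 and 169. The other genes together thus had fewer outside reads in Ago2ADH than in wild type. The sum without Eif2c2 was not computed under these alternative settings.

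Compared per kilobase of the reference transcript, with reads of any class that match the genome at most once and hairpins left out, Ago2 was the most represented gene of the set. It stood at 2.88 RPM per kb in wild type (2.56 to 3.22) and 2.99 in Ago2ADH (2.66 to 3.36). Tnrc6b followed at 1.30 (1.11 to 1.51) and 1.11 (0.93 to 1.32), below Ago2 beyond counting error in both libraries. Dicer1 came next at 0.80 and 0.86. Tnrc6a stood at 0.64 and 0.69, and Ago1 at 0.64 and 0.37. Dgcr8 stood at 0.58 and 0.43, and Xpo5 at 0.41 and 0.61. From Dicer1 to Xpo5 the intervals of neighbours in this order overlap in wild type. Ago3, at 0.15 and 0.29, and Ago4, at 0.04 and 0.02, were lowest in wild type, where Tarbp2 stood at 0.35 on 4 reads. The order below Tnrc6b depended on the length used: per kilobase of the median transcript length of each gene, Ago3 came next after Tnrc6b in wild type, at 3.62, above Tnrc6a at 2.95 and Dicer1 at 2.17.

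Other genes of the small RNA pathway were read from a list of 58, of which 55 had reads and 50 were tested. By the size rule 1 of the 50 rose and 1 fell, near the shares of 1.8% and 1.99% over all tested genes, so the count does not set the list apart. Eri1, an exonuclease that trims small RNA ends, rose, with 13 reads in the wild type and 28 in the mutant library (log2 ratio 1.22, 0.22 to 2.29), and Pnpt1, a mitochondrial polynucleotide phosphorylase, fell, with 27 and 10 (log2 ratio −1.32, −2.54 to −0.23). By the interval alone 10 of the 50 were lower, where 5.95% of all tested genes were, and the median over the 50 was −0.09. An interval excludes 1 more readily with more reads: of the 1161 genes past it, 653 had 100 or more reads. No share over genes of like read number was counted, so the 10 of 50 cannot be set directly against the 5.95%. Drosha, listed as Rnasen, the nuclease of the Microprocessor and partner of Dgcr8, had 81 reads in wild type and 43 in Ago2ADH (log2 ratio −0.80, −1.37 to −0.25). Over all its reads the ratio did not reach the limit of 0.5. Within transcripts Drosha fell, with 23 and 7 reads (log2 ratio −1.61, −3.07 to −0.34), a call made on the lower side for 2.52% of the genes tested there. Outside transcripts it had 58 and 36 reads (log2 ratio −0.58, −1.22 to 0.05). The lower genes also include Hspa8, a chaperone with the most reads in Argonaute loading, at 1423 and 1003 reads. Pabpc1, the poly(A)-binding protein with the most reads among the effectors, was lower too, at 776 and 508.

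Apart from Hspa8 and Pabpc1, the other pathway genes named for most reads in their role did not differ beyond counting error. The genes of the Piwi clade had too few reads to be tested. In nuclear processing Ddx5 had 272 and 255 reads and Ddx17 had 241 and 207. Hsp90ab1, a chaperone of Argonaute loading, had 449 and 403 reads, and Cnot1, the scaffold of the deadenylase complex, had 248 and 235. In tailing and turnover Snd1 had 511 and 424 reads and Zcchc11 had 177 and 147. Ran, the export GTPase, had 41 and 36 reads and Prkra, a Dicer partner, had 11 and 12. The Piwi clade gave 2 reads in wild type and 7 in Ago2ADH, 5 of the latter from Piwil2 and 1 each from Piwil1 and Piwil4.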

How the data were processed

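The deposited values are raw counts of reads for each distinct sequence in each library, and the table adds the number of genome matches, an annotation class and a description, per the file headers. Aligner, build and trimming: not given in the sources used here. Reads of the RefSeq class were summed by gene symbol and scaled to all reads of their library. They were placed by exact match on GENCODE M21 transcripts (GRCm38) of their own gene, for 15981 of 16128 symbols and 99.3% of RefSeq reads. Log2 ratios have exact conditional binomial 95% intervals, levels exact Poisson intervals and shares exact Clopper-Pearson intervals. PCR reads carry no molecular identifiers, so intervals and limits cover counting error only. The size rule needs 20 or more reads, a ratio of 2 or more or of 0.5 or less, and an interval that excludes 1. The rule was tried on data simulated with counting error only, in which 200 genes with 100 or more reads were changed 3-fold. At a ratio of 3, 99% were called higher, and at the inverse ratio 100% were called lower. Of unchanged genes 1.26% met the size rule and 3.43% had an interval excluding 1. The simulation holds no spread between libraries and no changed genes with fewer reads, so it cannot test the rule for those. Alternatives were other scalings (TMM by edgeR 4.0.16), read minimums, fold limits and read classes. The named genes are all 10, the other pathway genes that met the size rule and the 2 with most reads in each role; Drosha was named after its values were seen. One result on the pathway list is not reported here. The genes and lists were chosen with earlier results of these data known. The software was python 3.11.15, numpy 2.4.6, pandas 2.3.3 and scipy 1.17.1.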

Additional observations from a re-analysis of the deposited data

How the results depend on the processing

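The log2 ratio of Eif2c2 stayed above 0 under the 10 alternative settings of scaling and read choice, from 0.12 to 0.70, and its interval excluded 0 in all but one: with reads in sense within transcripts it was 0.12 (−0.22 to 0.46). With only reads outside transcripts, chosen after seeing the data, it was 1.17. For the 10 genes, 112 of 120 alternative values lay within the interval first given. The other 8 were those values of Eif2c2, 0.12 and 1.17, and Eif2c3 at −1.39 with reads of 20 to 24 nt and −0.89 with sense reads within transcripts, Dgcr8 at −0.13 with distinct sequences counted, at −0.28 without hairpin reads and at −0.50 outside transcripts, and Dicer1 at −0.66 outside transcripts. Scaling to miRNA reads shifted all log2 ratios by −0.11 and left the set's summed ratio at 0.05 (−0.06 to 0.16). The count of called genes, 362, was 544 with no minimum of reads, 30 with a minimum of 100, 772 at a fold limit of 1.5, 89 at a fold limit of 3 and 209 with distinct sequences counted; the number of genes past the interval, 1161, was 653 with a minimum of 100. The higher share of these calls depended on the scaling, as given above. The wild type median level of the 10 genes, 0.61 RPM per kb, was 2.63 with the median transcript length of each gene, and the order of the genes below Tnrc6b changed with it. No paired analysis was possible because each genotype has 1 library.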
